A study of Mus musculus with 10 samples.

Results

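The genes described here encode proteins and an enzyme of the myelin sheath, and they were followed in mesenchyme of mouse lower incisors after loss of the sensory nerve. They are Mbp, Pmp22, Pmp2, Mag, Prx, Mal, Ugt8a and Cnp. Members were taken as probe sets, the groups of probes that measure a transcript, to which the supplied probe table gave exactly 1 of these symbols. This found 18 probe sets for 7 of the 8 genes, among 45037 probe sets and 18193 genes in all. Mbp has 8 probe sets, Cnp 3, Mal and Ugt8a 2 each, and Pmp22, Pmp2 and Mag 1 each; Prx was not analysed here. The probe set of a gene that was highest on average over the 10 arrays is called its brightest and stands for the gene.

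The inferior alveolar nerve, which supplies the lower teeth, was resected on 1 side in wild-type C57BL/6J mice, and both lower incisors were sampled 2 weeks later at postnatal day 60. The 5 denervated arrays hold total RNA of mesenchyme from the operated side, and the 5 contralateral arrays that of the other side of the same animals. Arrays of equal number were taken as the 2 incisors of a mouse and are called mouse 1 to mouse 5. No sham-operated incisor is among the samples, so that loss of the nerve and the operation itself cannot be told apart. Nor can more cells of a type be told apart from more RNA per cell in tissue measured in bulk.

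Myelin is the membrane sheath that glial cells wrap around axons. In peripheral nerves it is made by Schwann cells, which form compact myelin with stacked membranes and non-compact regions beside the axon and at the edges of the sheath. When an axon degenerates, its Schwann cells are known to leave the myelinating state, to lower their myelin genes and to take up a repair state, in which they clear myelin together with macrophages. Pulp nerves contain both myelinated and unmyelinated sensory fibres.

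Intensities are on a log2 scale. The arrays had medians from 1.48 to 1.54, and 40.7% of all genes had a mean below 2. Detection calls are not part of the table, and low intensities may therefore be background alone. Of the 7 measured genes, 3 had a mean of 4 or more (Mbp at 4.08, Pmp22 at 7.95 and Cnp at 7.20). Mbp reached it on its brightest probe set only, since 3 of the 18 probe sets had such a mean. A mean below 2 was seen in 3 genes (Pmp2, Mag and Ugt8a). Odontoblast markers, which define the tissue, were high (9 of 9 measured with a mean of 4 or more), and so were those of the enamel-forming epithelium (11 of 11). Denervated arrays 2 and 3 stood apart from the others in several cell type lists, given below, so the values of the myelin genes are given by mouse.

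In the denervated incisor of mouse 2 myelin transcripts were far above the contralateral side, in mouse 3 some of them were, and in mice 1, 4 and 5 they were not. The median difference of the 7 brightest probe sets, denervated minus contralateral on the log2 scale, was 2.28 in mouse 2 and 0.39 in mouse 3. It was -0.18, 0.11 and -0.09 in mice 1, 4 and 5. Over all genes the same medians lay between -0.02 and 0.07. In mouse 2 all 18 probe sets, 8 of them of Mbp, were higher on the denervated side. By gene it was 7 of 7, against 57.6% of all genes. Some differences were close to none, such as 0.00071 for Ugt8a 1419064_a_at and 0.063 for Mbp 1425263_a_at. Of the 18 probe sets 11 were higher by more than 1 log2 unit, a size that 0.984% of all probe sets reached in that mouse. Denervated array 2 was the highest of the 10 arrays in 15 of the 18 probe sets, against 16.5% of all probe sets. Counted by gene, it was the highest in 6 of 7, against 21.2% of all genes. The mouse 2 difference was above 1 in 5 of 7 genes (1.77% of all genes) and that of mouse 3 in 1 of 7 (1.52%). Both were above 0.5 in 3 of 7 genes, Pmp22, Mal and Cnp, against 4.21% of all genes. No gene among the 7 passed the test over the 5 arrays per group.

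Upstream sequences of the genes with their highest value in denervated array 2 are shown from RefSeq on GRCm38.p6, since they are the regions where shared regulators could act. Mag is among these genes with 1.92 in that array, which may be background alone. Of the 7 measured genes 5 have entries, in 10 windows of 300 bases, counting alternative starts; Mbp and Pmp2 have none. The stretches run 5′ to 3′ on the strand of the gene and end at the base before its first annotated start. That of Pmp22 is chr11:63128732-63128981 (plus strand), that of Mag chr7:30914923-30915172 (minus), that of Cnp chr11:100574689-100574908 (plus), that of Mal chr2:127656696-127656945 (minus) and that of Ugt8a chr3:125938683-125938902 (minus). Capitals mark the word ACAAAG on either strand, a core word of SOX factors, the family of the Schwann cell regulator SOX10.
Pmp22: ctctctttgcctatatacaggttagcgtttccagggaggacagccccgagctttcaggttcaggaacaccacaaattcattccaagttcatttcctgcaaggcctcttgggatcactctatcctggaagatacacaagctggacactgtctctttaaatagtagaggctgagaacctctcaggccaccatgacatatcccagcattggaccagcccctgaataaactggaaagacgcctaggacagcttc
Mag: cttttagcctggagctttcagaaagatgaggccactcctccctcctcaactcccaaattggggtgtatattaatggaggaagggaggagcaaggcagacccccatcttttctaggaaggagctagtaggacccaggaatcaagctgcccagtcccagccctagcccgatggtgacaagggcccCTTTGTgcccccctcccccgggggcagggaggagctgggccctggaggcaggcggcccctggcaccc
Cnp: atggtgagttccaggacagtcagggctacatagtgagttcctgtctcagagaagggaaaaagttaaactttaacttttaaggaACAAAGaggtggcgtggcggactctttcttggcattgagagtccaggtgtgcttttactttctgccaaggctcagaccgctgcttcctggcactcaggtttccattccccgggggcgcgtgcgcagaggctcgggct
Mal: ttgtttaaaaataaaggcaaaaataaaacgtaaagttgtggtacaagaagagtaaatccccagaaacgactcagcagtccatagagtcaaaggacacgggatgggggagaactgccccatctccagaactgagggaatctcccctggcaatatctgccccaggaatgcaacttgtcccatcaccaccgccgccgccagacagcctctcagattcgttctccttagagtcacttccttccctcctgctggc
Ugt8a: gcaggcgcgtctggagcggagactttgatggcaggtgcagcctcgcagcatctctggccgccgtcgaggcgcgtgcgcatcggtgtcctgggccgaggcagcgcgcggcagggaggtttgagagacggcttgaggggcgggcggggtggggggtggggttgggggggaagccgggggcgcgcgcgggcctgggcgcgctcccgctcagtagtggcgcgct

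Both strands of the windows were searched for ACAAAG and ACAATG, words of SOX factors, and for GCGTGGGCG and GCGGGGGCG, words of EGR factors, the family of the myelination regulator EGR2; the words do not overlap each other here. ACAAAG was found once in Cnp, 137 bases before the start, and in Mag, 67 bases before it and as CTTTGT. It occurs in 18.7% of all 32851 windows. ACAATG (12.6% of windows), GCGTGGGCG (0.612%) and GCGGGGGCG (2.91%) were in no window of the measured members. The Ugt8a window had a GC content of 78.3% and 40 CG pairs, against medians of 52.7% and 7 over all windows, while that of Mal had 51.0% and 8. A match is a description of the letters only.

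Mbp encodes myelin basic protein, which holds the inner faces of compact myelin membranes together, and its 8 probe sets disagreed. On probe set 1433532_a_at the contralateral arrays 1 to 5 had 3.64, 2.52, 2.17, 2.51 and 4.51, and the denervated arrays 2.11, 9.71, 6.80, 2.66 and 2.28. Denervated arrays 2 and 3 were above every contralateral array, and denervated arrays 1 and 5 were below their own contralateral arrays. The differences in mice 1 to 5 were thus -1.53, 7.19, 4.63, 0.14 and -2.22. On 1436201_x_at the contralateral values were 1.25, 0.80, 0.49, 0.70 and 1.39 and the denervated ones 0.92, 8.29, 3.95, 0.98 and 0.70. The order of the arrays at the top was the same, and so it was for 1454651_x_at, 1456228_x_at and 1419646_a_at, whose differences in mouse 2 were 7.64, 6.78 and 4.42 and in mouse 3 were 2.21, 3.31 and 2.36. Contralateral values as low as 0.49 may be background alone, and the size of such differences depends on that low end.

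The brightest probe set of Mbp, 1425264_s_at, did not share this pattern. Contralateral arrays 1 to 5 had 4.30, 4.25, 3.92, 4.31 and 4.22 on it and denervated arrays 4.00, 4.34, 3.28, 4.35 and 3.88. Denervated array 3 was the lowest of all, and array 2 lay within 0.09 of its contralateral partner. Probe sets 1425263_a_at and 1451961_a_at also stayed within a narrow range, from 0.90 to 1.14 and from 0.80 to 1.70 over the 10 arrays, with denervated array 2 the highest in the latter. Mean differences over the 5 arrays per group were -0.23 ± 0.18 (SE) for 1425264_s_at and between 0.01 and 2.04 for the other 7, so that 1 of the 8 had a lower mean on the denervated side. The error was widest for 1433532_a_at, whose difference was 1.64 ± 1.33 (SE). Which Mbp transcripts each probe set reads was not analysed here.

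**Figure D1:**
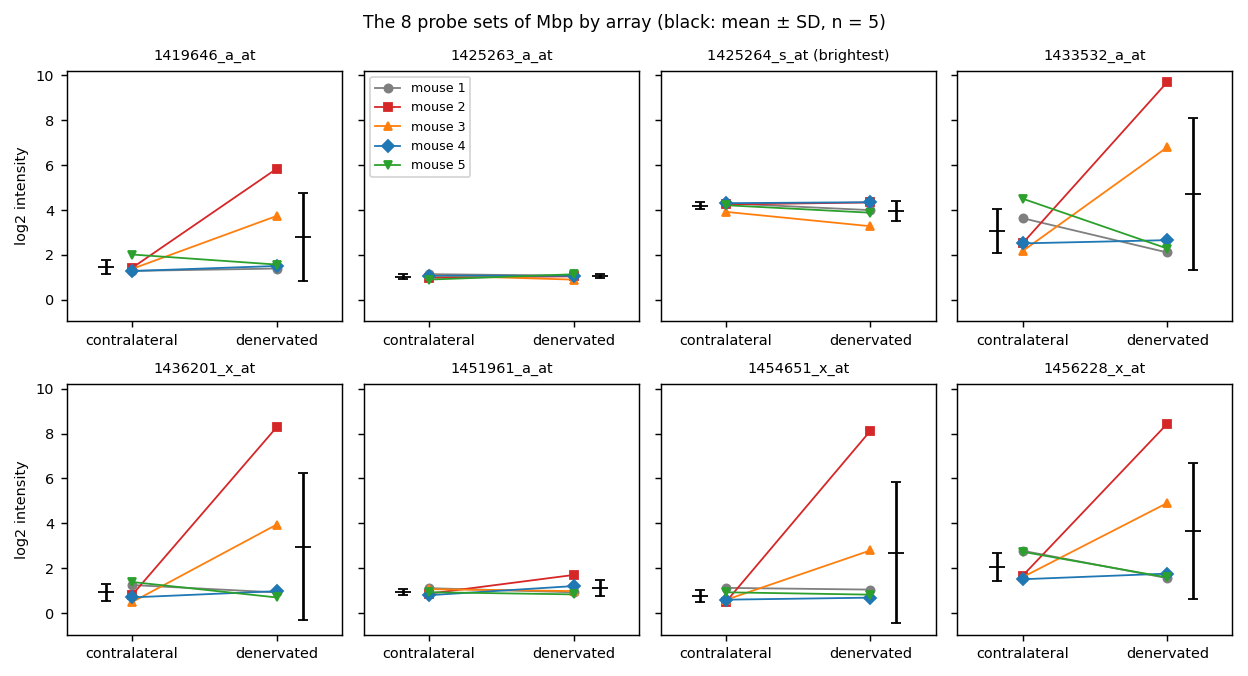
Log2 intensity of the 8 Mbp probe sets (vertical axis) in contralateral and denervated incisors; lines join the arrays of a mouse, and black marks give mean ± SD of 5 arrays. In 5 probe sets denervated arrays 2 and 3 stand highest, with 9.71 and 6.80 on 1433532_a_at, and in 1425264_s_at they do not.

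Pmp22 encodes a membrane protein of compact myelin that is also made by fibroblasts and many other cells, and its level was well above the low end of the scale everywhere. Contralateral arrays 1 to 5 had 7.94, 7.56, 7.40, 7.55 and 7.81, and denervated arrays 7.73, 9.84, 8.30, 7.87 and 7.52. Denervated arrays 2 and 3 were the 2 highest, and the other 3 lay within the contralateral range. The group means were 8.25 ± 0.93 and 7.65 ± 0.22 (SD, n = 5), a difference of 0.60 (95% confidence interval -0.21 to 1.41), and in mouse 2 alone the denervated side was 4.86-fold brighter.

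Pmp2 encodes a small fatty acid-binding protein of compact peripheral myelin. Its contralateral values were 1.09, 0.97, 1.39, 1.25 and 0.87, and its denervated values 0.98, 3.98, 1.53, 1.12 and 1.11. Only denervated array 2 was clearly away from the rest, 2.59 above the highest contralateral array, while array 3 exceeded it by 0.14. The difference was 3.01 in mouse 2 and between -0.13 and 0.24 in the other 4 mice.

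Mag, the myelin-associated glycoprotein of the membrane that faces the axon, stayed near the low end of the scale. Contralateral arrays had 0.91, 0.99, 1.07, 1.11 and 1.18, and denervated arrays 0.94, 1.92, 1.04, 1.22 and 1.09. Denervated array 2 was again the highest, by 0.75 above the contralateral maximum, and array 3 was inside the contralateral range. At such intensities it is not shown that Mag transcripts were detected in any array other than this one, nor that they were in it.

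Cnp encodes a phosphodiesterase of non-compact myelin that occurs at lower levels in other cells. Its brightest probe set, 1437341_x_at, had contralateral values of 7.17, 7.04, 6.82, 6.94 and 6.71 and denervated values of 6.98, 8.76, 7.64, 7.18 and 6.78. Denervated arrays 2 and 3 were above all contralateral arrays, by 1.60 and 0.47. All 3 Cnp probe sets shared this order at the top: the mouse 2 differences were 1.72, 2.14 and 0.87 and the mouse 3 differences 0.82, 1.18 and 0.49 for 1437341_x_at, 1418980_a_at and 1449296_a_at. Over the groups 1437341_x_at differed by 0.53 (95% confidence interval -0.15 to 1.22), with a limma adjusted p of 0.802 over all genes, the smallest among the 7 genes.

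Mal encodes a lipid raft protein of myelin that epithelial cells make as well. On 1417275_at the contralateral arrays had 1.86, 1.76, 1.25, 1.22 and 1.68 and the denervated arrays 1.42, 5.87, 2.93, 1.13 and 1.19. Denervated arrays 2 and 3 were highest, and arrays 1, 4 and 5 were below their contralateral partners, by -0.44, -0.09 and -0.49. The second Mal probe set, 1432558_a_at, had 2.26 and 1.94 in denervated arrays 2 and 3 and between 1.13 and 1.27 in the other 8. The epithelial marker list had a median difference of -0.19 in mouse 2 and -1.61 in mouse 3, and its part in the Mal values was not tested.

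Ugt8a encodes the enzyme that makes galactosylceramide, a main lipid of myelin. Contralateral arrays 1 to 5 had 0.57, 0.60, 0.45, 0.35 and 0.43 on 1419063_at, and denervated arrays 0.39, 5.11, 0.84, 0.62 and 0.50. Denervated array 2 alone stood apart, with a mouse 2 difference of 4.51, or 22.7-fold in intensity, against 4.11 for Mal, or 17.2-fold. The other Ugt8a probe set, 1419064_a_at, lay between 0.47 and 0.80 in all 10 arrays, with denervated array 3 lowest. Folds from values this low are ratios of intensities and not of transcript amounts.

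**Figure D2:**
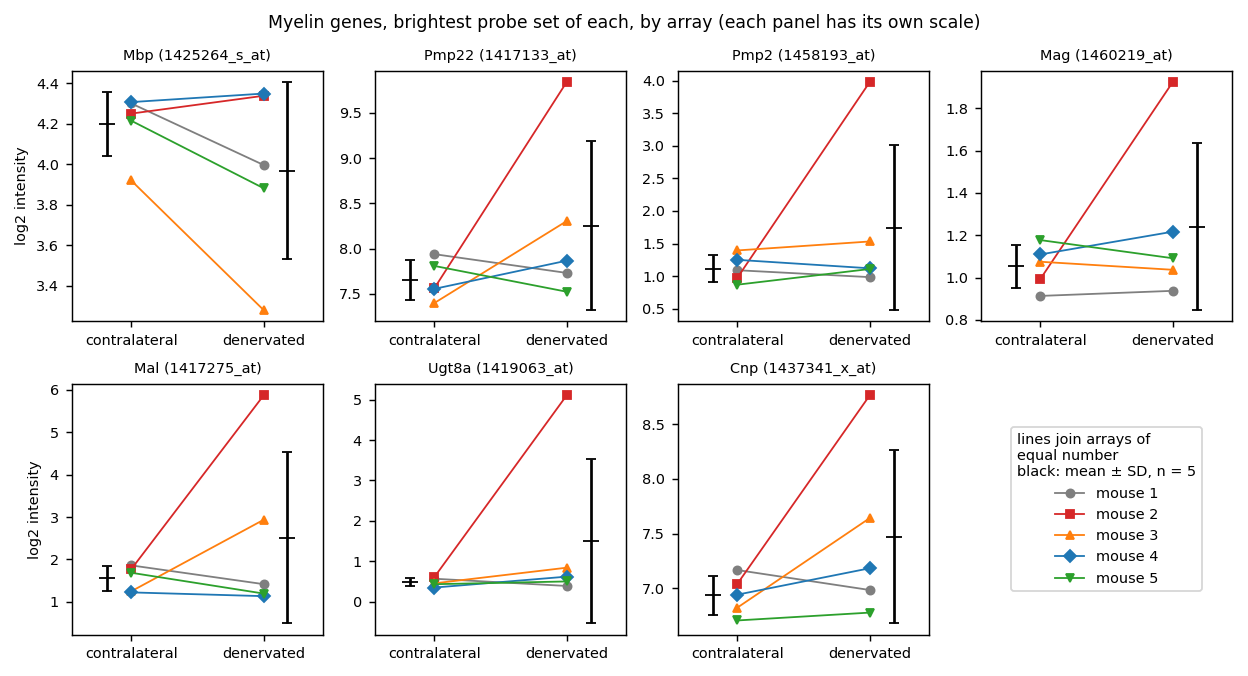
Log2 intensity (vertical axis, scaled per panel) of the brightest probe set of 7 myelin genes in contralateral and denervated incisors; lines join the arrays of a mouse, and black marks give mean ± SD of 5 arrays. The red line, mouse 2, ends highest on the denervated side in 6 of 7 genes.

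The comparison asked whether myelin transcripts differ between the denervated and the contralateral incisors. Of the 7 genes 6 had a higher mean on the denervated side, as had 55.8% of all genes, and their median difference was 0.60 against 0.02 over all genes. By limma's moderated test with Benjamini-Hochberg adjustment over 18193 genes, 0 of 7 passed an adjusted p of 0.05, where 0% of all genes did. Their adjusted p lay between 0.802 and 0.832, and 0 had an unadjusted p below 0.05, which 4.1% of all genes had with a higher and 2.11% with a lower mean on the denervated side. After quantile normalization these 746 higher and 383 lower genes became 523 and 499. The denervated and contralateral arrays overlapped in 7 of 7 genes and in 18 of 18 probe sets; 0.951% of all genes had groups that did not overlap. No member was higher in all 5 mice (6.58% of genes) or lower in all 5 (3.8%). With the mouse as a block the adjusted p lay between 0.531 and 0.680. Without denervated array 2 the median difference was 0.11, and without denervated arrays 2 and 3 it was 0.02. Without denervated array 3 alone it was 0.59, so the group difference rests mainly on denervated array 2. The intervals leave room for differences in either direction: Mal at 0.95 (-0.75 to 2.66) and Ugt8a at 1.01 (-0.69 to 2.71).

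**Figure D3:**
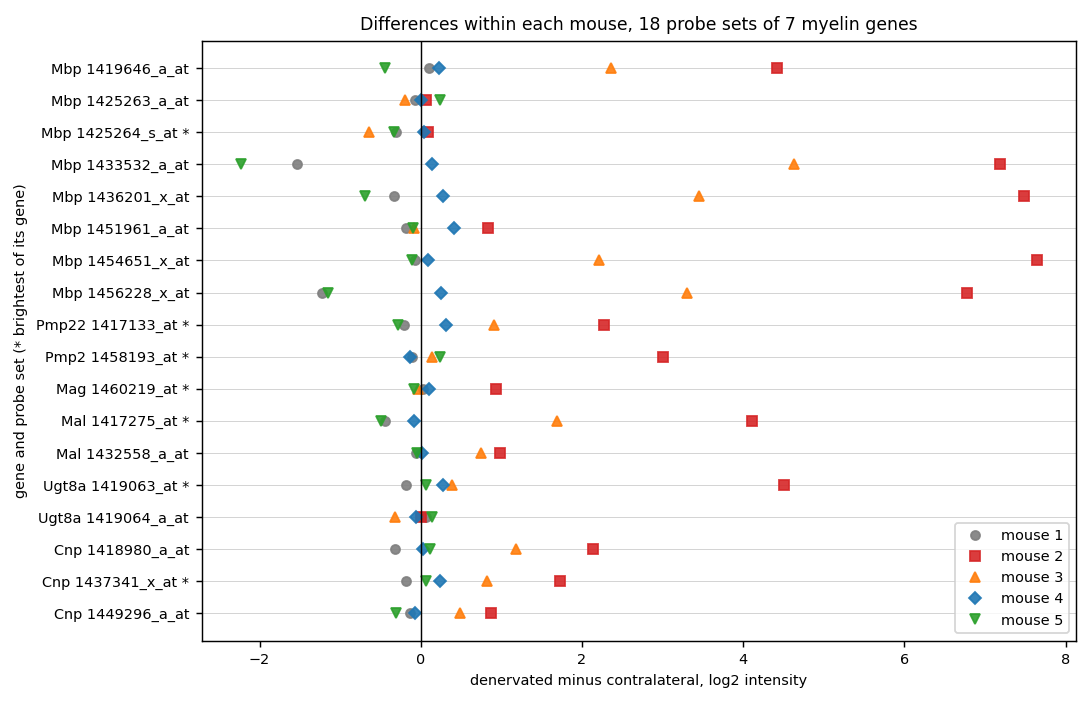
Denervated minus contralateral log2 intensity (horizontal axis) in each of 5 mice for 18 probe sets (rows). Mouse 2 (red squares) lies to the right of 1 in 11 rows and mouse 3 (orange triangles) in 7, while mice 1, 4 and 5 lie to the right of 1 in 0 rows and reach -1.53 and -2.22 on an Mbp probe set.

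Mice 1, 4 and 5 differed less, and not in 1 direction. In mouse 1 the differences of the 8 Mbp probe sets ran from -1.53 to 0.11, in mouse 4 from -0.002 to 0.41 and in mouse 5 from -2.22 to 0.24. On 1456228_x_at contralateral arrays 1 and 5 had 2.78 and 2.73, the 2 highest of that group, and their denervated partners 1.56 and 1.59. The other contralateral arrays had 1.51 to 1.66. In mouse 1, 3 of 18 probe sets were higher on the denervated side, in mouse 5 it was 6 of 18, and in mouse 4 it was 13 of 18. By gene it was 1, 3 and 5 of 7, against 46.1%, 48.1% and 52.4% of all genes. No difference of the 18 probe sets was above 1 in any of these mice.

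The other genes of myelin were taken from lists that do not hold the members; 0 genes of any list passed over all genes. Of 11 measured genes for further myelin proteins 4 had a higher and 7 a lower mean, with a median difference of -0.03, and 5 had a mean below 2. In that list Cadm4, an adhesion protein between Schwann cell and axon, had the smallest p and differed by 0.87 ± 0.51 (SE), with 3.31 in mouse 2 and 0.71 in mouse 3. Gjc3, a glial connexin, differed by -0.13 ± 0.08, with -0.37 and -0.12 in mice 2 and 3. Its values lay between 0.71 and 1.14 in all 10 arrays and may be background alone. Of 13 genes of myelin lipid synthesis 9 had a higher mean, with a median of 0.07: Fa2h, which hydroxylates fatty acids of myelin lipids, had 3.27 in denervated array 2 and 1.24 ± 0.09 in the contralateral arrays (SD, n = 5), while the cholesterol gene Dhcr7 differed by 0.23 ± 0.14 and Fasn, the fatty acid synthase, by 0.16 ± 0.10. Dhcr7 had 0.37 and 0.54 in mice 2 and 3 and 0.02 to 0.12 in the others, and Fasn 0.56 and 0.26 against -0.07 to 0.04.

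Regulators of myelination included factors that had their highest value in denervated array 2. Of 17 genes 13 had a higher mean, with a median difference of 0.20, and -0.02 without denervated arrays 2 and 3. A mean below 2 was seen in 6 of the 17, among them Pou3f1 (1.30), Egr2 (1.57) and Sox10 (1.86), whose contralateral values may be background alone. Pou3f1, a factor of promyelinating Schwann cells, had 3.86 and 2.14 in denervated arrays 2 and 3 and 0.83 ± 0.06 in the contralateral arrays. Egr2, which drives myelin genes, had 2.73 and 1.78 there against 1.36 ± 0.10. Tead1 differed by 0.24 ± 0.13, with 0.76 and 0.43 in mice 2 and 3 and -0.06 to 0.05 in the others. Nab1, a partner of EGR factors, differed by -0.20 ± 0.11, with -0.33 and -0.52 against -0.12 to 0.09. Sox10, named here for its role in Schwann cells after its values were seen, had 3.38 and 2.10 against 1.66 ± 0.05.

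Markers of immature or repair Schwann cells had 13 of 17 higher means, a median of 0.25, and medians of 0.73 in mouse 2 and 0.36 in mouse 3 against -0.03 to 0.01 in the other mice. Fabp7, a fatty acid-binding protein of immature glia, had a higher value on the denervated side in 5 of 5 mice, by 0.95, 2.17, 1.26, 0.53 and 1.33, with an adjusted p of 0.790 by limma. Cdh19, a Schwann cell cadherin, was also higher in 5 of 5, by 0.03, 2.55, 1.74, 0.56 and 0.60 (adjusted p = 0.792 by limma). Both were named for the smallest p in their list, and other markers of it went the other way in mice 1, 4 and 5, such as S100b with -1.08, -0.40 and -0.31. Ngfr, the neurotrophin receptor of repair cells, differed by 0.31 ± 0.22, with 0.83 and 0.70 in mice 2 and 3 and -0.23 to 0.25 in the others. Gfap, near the low end of the scale, differed by -0.15 ± 0.08, with -0.40 and -0.31 against -0.04 to 0.01.

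Markers of other cells were set beside these values, since several members are made by more than 1 cell type. Of 17 axon genes 13 had a mean below 2, and the list's medians, 0.13 in mouse 2 and 0.02 in mouse 3, are mostly over such low values. On the denervated side 8 of the 17 had a higher and 9 a lower mean. By smallest p, Rbfox3, Prph and Scn10a differed by -0.28, -0.22 and -0.16 and Syt1 by 0.14, all with a mean below 2. In mouse 2, 3 of the 17 were above 1, against the 1.77% of all genes: Thy1 with 1.02, Stmn2 with 1.27 and Tac1, the substance P precursor, with 1.62. In mouse 3 these had 0.99, 0.13 and 0.45. Tubb3, with a mean of 5.85, had -0.08 in mouse 2 and -1.18 in mouse 3. The summed log2 level of the axon list ran from 32.7 to 38.3 in the contralateral and from 32.1 to 37.6 in the denervated arrays. Oligodendrocyte markers, the glia that make myelin in the brain, had a mean below 2 in 11 of 11 genes, with a summed level of 10.3 to 11.96 contralateral and 10.3 to 13.6 denervated. Cldn11, which other cells make too, had 2.63 and 2.66 in denervated arrays 2 and 3 against 0.72 ± 0.13 in the contralateral arrays (SD, n = 5). Aspa had 2.23 and 1.24 there against 1.09 ± 0.03. Hapln2 differed by -0.14 and reached at most 1.65 in any array. The defining markers Mog, Mobp and Opalin, of which Mog and Opalin were not picked by p, reached at most 1.37, 1.18 and 1.47. Skeletal muscle markers were below 2 in 9 of 10 genes, with a summed level of 11.1 to 12.6 contralateral and 10.9 to 12.1 denervated.

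Vessel markers were higher mainly in the same 2 mice, and macrophage markers were higher in all 5 mice, most in these 2. Macrophage markers had a higher mean in 11 of 11 genes, against 55.8% of all genes. In 7 of 11 the unadjusted p by limma was below 0.05 with a higher mean, against 4.1% of all genes. Without denervated arrays 2 and 3, 9 of 11 had a higher mean, against 49.1% of all genes, with a median of 0.28. The macrophage medians were 0.85 and 0.90 in mice 2 and 3 and 0.17 to 0.39 in the others. Their summed level ran from 60.0 to 64.9 contralateral and from 63.8 to 73.8 denervated. Pericyte and smooth muscle markers had medians of 0.97 and 0.55 in mice 2 and 3 and at most 0.16 elsewhere, with 56.7 to 58.5 against 58.1 to 69.2. Endothelial markers had 0.58 and 0.56 and were below 0 in the others, with 56.2 to 60.6 against 55.2 to 65.0. Adipocyte markers had a mean below 2 in 5 of 7 genes, with -0.09 and 0.21 in these mice and sums of 9.81 to 11.2 contralateral and 11.5 to 12.2 denervated. Odontoblast markers had -0.31 and 0.10 in mice 2 and 3, and -0.32, -0.23 and -0.13 in mice 1, 4 and 5. Of the 9 genes 2 had a higher mean, against 55.8% of all genes. In 3 of 9 the unadjusted p by limma was below 0.05 with a lower mean, against 2.11% of all genes. The odontoblast sums were 82.3 to 84.6 contralateral and 76.9 to 84.3 denervated, lowest in denervated array 2. Epithelial markers had -0.19 and -1.61 in mice 2 and 3 and -0.15 to 0.12 in the others. Their sums were 104.2 to 107.3 contralateral and 79.8 to 105.5 denervated, lowest in denervated array 3. In mouse 3, 7 of the 11 epithelial genes had a difference below -1. The part of these cell types in the myelin values was not tested.

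**Figure D4:**
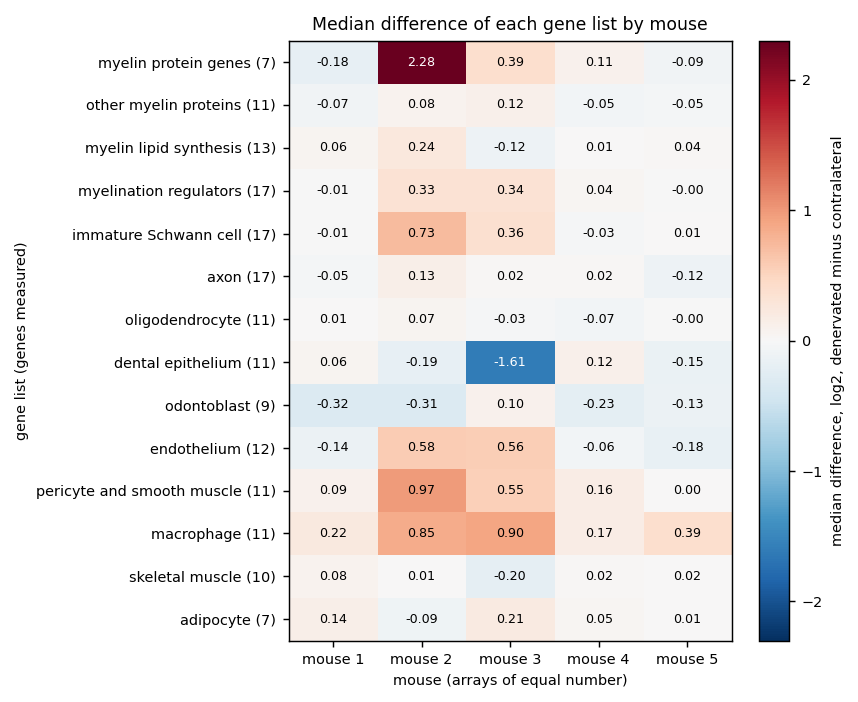
Median denervated minus contralateral log2 difference (colour and printed value) of each gene list (rows, with the number of genes measured) in each mouse (columns). The 7 myelin protein genes have 2.28 in mouse 2 and 0.39 in mouse 3; macrophage, pericyte and endothelial lists are above 0.5 in both mice, and the axon list, mostly of genes near the low end of the scale, is at most 0.13 in any mouse.

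Likeness of pattern was described by Pearson's r over the 10 arrays, which include both incisors of each mouse, so no p is given. Pmp2 and Ugt8a were the members most like each other (0.98), as were Pmp22 and Mal (0.97); Cnp was most like Pmp22 (0.97) and Mag most like Ugt8a (0.94). For the brightest probe set of Mbp the nearest member was Mag, at 0.31. Without the 2 arrays farthest from the median the value for Pmp2 and Ugt8a was -0.17 and that for Pmp22 and Mal 0.42, so that the likeness lay mostly in denervated arrays 2 and 3. Among 7916 other genes with a mean of 4 or more, Smg5 (0.96), Dgkz (0.95), Snord104 (0.93), Brd8 (0.93), Cuedc2 (0.93), Abcc4 (0.93), Adam17 (0.93) and Plekhf1 (0.92) were most like the mean of the 7 centred genes. Their Spearman coefficients lay between 0.35 and 0.82, and without denervated arrays 2 and 3 their r lay between -0.36 and 0.67. In mouse 2 these 8 genes differed by 0.20 to 0.72, less than 6 of the 7 members did.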

How the data were processed

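The authors deposited log2 intensities, with a column for each array. Per the submitters' processing notes they used RMA; its version, the build and further settings are not given in the sources used here. RMA corrects background and normalizes between arrays, and differences between low values depend on how that was done. The values were used as deposited. The 64 control probe sets were left out, which left 45037. The platform annotation gave 34945 of them 1 symbol, 932 several and 9160 none, and the brightest probe set on average stands for a gene (18193 genes).

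Arrays were compared by limma 3.58.1 in R 4.3.3 (lmFit and eBayes, without a mouse term), fitted over all genes and, for single probe sets, over all probe sets, with Benjamini-Hochberg adjustment and a threshold of 0.05. Intervals are limma's 95% confidence intervals. The code was tested on simulated data. Alternatives used the mouse as a block, other normalizations, a floor, other probe set choices and fewer arrays. The number of arrays limits the precision.

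Equal numbers were taken to pair the arrays. The series' design describes operated and contralateral incisors from the same animals. Deviations from the group means gave r of 0.18 to 0.57 for 5 pairs with equal numbers, against -0.41 to 0.22 for the 20 pairs with unequal ones. Of the 5 denervated arrays 4 correlated best with the contralateral array of their own number.

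Members and lists were chosen with earlier results of these data known. Named genes are all members, up to 4 genes per list by smallest p where the list is described gene by gene, and the 8 genes most like the members' mean. Sox10, S100b, Thy1, Stmn2, Tac1, Tubb3, Mog and Opalin were picked outside this rule, as were the genes with the largest difference in mouse 2. Some listed genes were not analysed here.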

Additional observations from a re-analysis of the deposited data

Results flagged for a closer look

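In 6 of 36 groups of 5 arrays, 2 for each of the 18 probe sets, the highest or lowest array lay far from the other 4, by a gap of more than 0.71 of the group's range. Chance flags about 1 in 20 such groups, and probe sets of the same arrays are not independent. In 4 of the 6 it was denervated array 2 on the high side: Ugt8a 1419063_at at 5.11, Pmp2 1458193_at at 3.98, Mbp 1454651_x_at at 8.13 and Mag 1460219_at at 1.92. The others were contralateral array 5, high on Mbp 1419646_a_at at 2.02, and contralateral array 3, low on Mbp 1425264_s_at at 3.92. For most other probe sets that were high in denervated array 2, denervated array 3 was high as well, so the gap was a smaller part of the range.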

How the results depend on the processing

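By limma the count of called genes was 0 in each of 22 alternatives. With the mouse as a block the smallest adjusted p was 0.234 (1805 genes at an unadjusted p under 0.05, against 1129 without the block). The block left the median difference of the 7 genes at 0.60 and called no member. Leaving out 1 array at a time gave medians between 0.11 (without denervated array 2) and 0.78. Array weights gave 0.30, and leaving out both arrays of mouse 2, a setting added after seeing the data, gave 0.14. With values below 2 set to 2 the median was 0.53. That floor took Mag from 0.19 to 0, Ugt8a from 1.01 to 0.62 and Pmp2 from 0.63 to 0.40. Mal was at 0.96 with it against 0.95, and Mbp, Pmp22 and Cnp did not change. Exact two-sided permutations of the 10 arrays gave unadjusted p between 0.167 and 0.421 for the 7 genes (smallest possible 0.00794), and exact sign flips of the 5 mice between 0.188 and 0.5 (smallest possible 0.0625). Only Mbp turned with the choice of probe set, to 1.06 with the mean over its probe sets. Without a suffix in the identifier no probe set of Mbp or Cnp was left, and a mean of 4 or more left Mbp, Pmp22 and Cnp.

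Settings that leave out arrays of mice 2 or 3 together were chosen after seeing the data, and the differences that turned direction are given for each. Without denervated arrays 2 and 3 they were -0.044 for Pmp2, -0.31 for Mal and -0.032 for its probe set 1432558_a_at. Those of Mbp 1433532_a_at, 1456228_x_at and 1436201_x_at were -0.72, -0.42 and -0.061, that of Cnp 1449296_a_at -0.021 and that of Ugt8a 1419064_a_at 0.039. Without both arrays of mice 2 and 3 they were -0.060 for Pmp22, -0.34 for Mal, -0.029 for 1432558_a_at, -0.056 for Cnp 1418980_a_at, -0.17 for 1449296_a_at and 0.048 for Ugt8a 1419064_a_at. Those of Mbp 1433532_a_at, 1456228_x_at, 1436201_x_at, 1419646_a_at and 1454651_x_at were -1.20, -0.70, -0.25, -0.040 and -0.030. Without both arrays of mouse 2 they were -0.0066 for Mbp 1425263_a_at and -0.0034 for Cnp 1449296_a_at. Leaving out single arrays, a planned setting, turned 2 dim probe sets: Mbp 1425263_a_at ranged from -0.027 to 0.044 and Ugt8a 1419064_a_at from -0.064 to 0.020. Values near the low end of the scale are limited by the missing detection calls.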

Other observations

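The 8 genes with the largest difference in mouse 2, chosen after their values were seen, were Mmp13, Cryab, Ugt8a, Mal, Kcna1, Aldh1a2, Car6 and Cadm4, in that order. Mmp13, a collagenase, differed by 7.01 in mouse 2 and 7.91 in mouse 3, and by -3.50, 0.29 and -4.03 in mice 1, 4 and 5. Cryab, a small heat shock protein, differed by 4.83 and 1.77 in mice 2 and 3, and by -0.49, -0.031 and -0.00084 in mice 1, 4 and 5. Kcna1, a potassium channel of axons, differed by 3.69 and 0.73 in mice 2 and 3, Aldh1a2, which makes retinoic acid, by 3.52 and 3.35, and Car6, a carbonic anhydrase, by 3.37 and -0.43. Several of these differences start from contralateral values near the low end of the scale, so their order depends on it.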
